A study of Rattus norvegicus with 6 samples.

Results

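The interferon-stimulated genes are the genes that a cell switches on when interferon, the main antiviral cytokine, binds its receptor. A named list of 37 of them was followed in kidney cortex from 6 male rats. Of these 37 genes, 34 had an array probe whose accession matched their symbol, and 33 had a probe bright enough to be tested, out of 32663 gene entries tested in all. Herc6, Xaf1 and Rigi (listed as Rig1 in the reference table) had no matched probe. The only probe of Ifit1 was well above background on 1 of the 6 arrays, corn oil replicate 3, so Ifit1 was not tested. The list was made by gene name, with earlier results of these data known.

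The rats were Sprague-Dawley animals of the Crl:CD(SD) stock, bought at 5 weeks of age. One group of 3 received corn oil, the vehicle, for 4 weeks, and the other group of 3 received anthraquinone, a tricyclic quinone, at 1000 mg/kg/day for 4 weeks. The route of dosing is not given in the sources used here. Each animal's total RNA was labelled with Cy3 and hybridised to its own Agilent array. The RNA came from whole cortex, so fewer cells of a type and less RNA per cell cannot be told apart. The 8 proximal tubule markers checked, among them Slc34a1, Lrp2 and Slc5a2, were all well above background on every array.

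Type I interferons signal through the receptor chains Ifnar1 and Ifnar2 and the kinases Jak1 and Tyk2, which phosphorylate STAT proteins. Stat2 joins Irf9 in a complex that binds the interferon-stimulated response element (ISRE) in promoters. Interferon gamma acts through a different element, the gamma-activated sequence (GAS). The products block viral entry, translation and replication, sense viral RNA, amplify the response through Irf7, and supply peptides to MHC class I. A low level of the same genes is kept up in uninfected tissue by constitutive interferon signalling.

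The promoters show what the members share. RefSeq promoter windows of assembly GRCr8, each running from 250 bases before to 50 bases after the annotated start, were found for 29 of the 37 members. The ISRE core was searched as GAAANNGAAA on both strands, where N is any base, and GAS as TTCNNNGAA, which reads the same on both strands. An ISRE core lay in the windows of 19 of these 29 members (65.5%) and in 3.92% of all 33469 windows. A GAS match lay in 6 of the 29 (20.7%) and in 8.87% of all windows. No ISRE core was found in the windows of Mx1, Oasl, Cmpk2, Herc6, Parp9, Stat2, Irf1, Irf9, Psmb9 and Ifi35. The windows with a GAS match were those of Bst2, Irf1, Irf9, Oas1a, Parp14 and Psmb8. A match is a run of letters, and the arrays do not show whether any factor binds it. In Oas1a and Bst2 there were 2 ISRE cores that shared 4 bases.

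**Figure D1:**
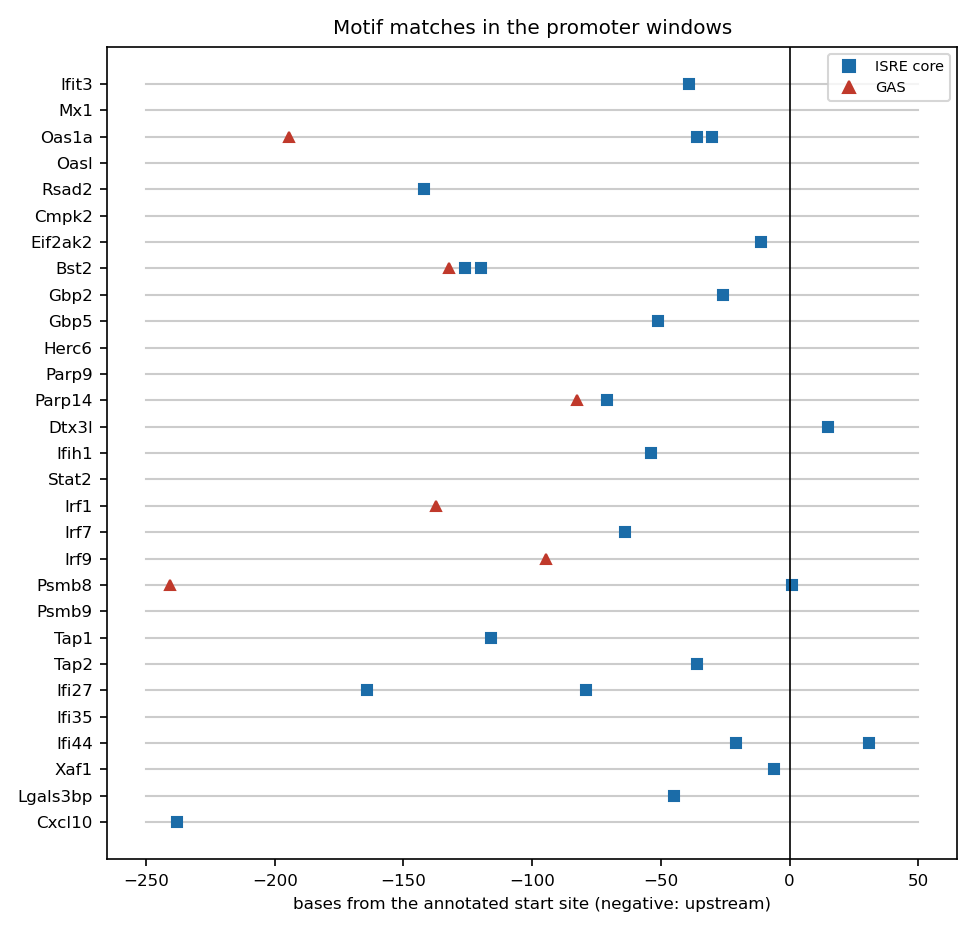
Positions of the ISRE core (squares) and GAS (triangles) in the 29 promoter windows, in bases from the annotated start site. Each row is 1 gene, the grey line is its window, and a marker is the middle of a match. Of the 29 windows 19 hold an ISRE core, from the Cxcl10 core that begins at -243 to the cores of Dtx3l and Ifi44 that begin at 10 and 26, after the start.

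The stretches around the ISRE core are printed for the members whose expression values are described most closely in the results that follow, with the core in capitals and the start site downstream of the last base. They are written 5′ to 3′ on the strand of the gene, and a core on the opposite strand reads as its reverse complement.
Gbp5, chr2:233910903-233910992 (plus strand): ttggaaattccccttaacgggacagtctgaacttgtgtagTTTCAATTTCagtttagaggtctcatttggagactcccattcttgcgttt
Parp14, chr11:78408018-78408107 (plus strand): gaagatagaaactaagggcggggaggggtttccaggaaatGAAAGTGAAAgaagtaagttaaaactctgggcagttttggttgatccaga
Bst2, chr16:18255043-18255132 (minus strand): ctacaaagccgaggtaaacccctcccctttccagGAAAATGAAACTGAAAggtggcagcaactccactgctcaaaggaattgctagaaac
Gbp2, chr2:234005656-234005726 (plus strand): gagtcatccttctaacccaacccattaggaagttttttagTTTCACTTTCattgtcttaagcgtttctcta
Irf7, chr1:205800043-205800132 (minus strand): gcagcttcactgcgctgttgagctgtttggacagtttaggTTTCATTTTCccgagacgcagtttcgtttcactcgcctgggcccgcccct
Tap1, chr20:4668615-4668704 (minus strand): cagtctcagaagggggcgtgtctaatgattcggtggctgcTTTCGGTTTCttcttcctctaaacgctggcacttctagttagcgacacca
Tap2, chr20:4652297-4652377 (minus strand): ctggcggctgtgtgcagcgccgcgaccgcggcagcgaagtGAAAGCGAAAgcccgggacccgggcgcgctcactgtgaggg
Ifih1, chr3:67683978-67684067 (minus strand): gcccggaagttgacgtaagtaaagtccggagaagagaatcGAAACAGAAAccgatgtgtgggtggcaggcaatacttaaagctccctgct
In Parp14 the core began at position -76 from the start and the GAS match at -87, just upstream of it. In Bst2 the GAS match began at -137 and ran into the first of the overlapping ISRE cores, which began at -131 and -125. Tap1 and Psmb9 have annotated starts 457 bases apart on chromosome 20, and their windows shared 44 bases, read on opposite strands. The Tap1 core, at -121, lay between both starts and outside the Psmb9 window.

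Most interferon-stimulated genes had slightly lower values after anthraquinone, and no single member passed the test. Of the 33 tested members 28 had a difference below 0 (84.8%), where 48.4% of all entries did. The median log2 difference, anthraquinone minus corn oil, was -0.27 over the members and 0.0074 over all entries. Differences ran from -0.76 for Rtp4 to 0.46 for Ifi35. With the limma test over all entries and Benjamini-Hochberg adjustment, 0 of the 33 members passed an adjusted p of 0.05 in either direction, against 0.0276% of all entries (0.0122% lower and 0.0153% higher). The smallest adjusted p of a member was 0.165. At an unadjusted limma p under 0.05, 7 members were lower and 1 higher, beside 7.65% and 9.47% of all entries.

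Values are normalized log2 signals, the log2 of the processed intensity minus the log2 of that array's 75th percentile, so 0 is the 75th percentile and -1 is 1 doubling below it. They compare arrays for 1 probe and do not rank genes, and sets of 3 values always follow replicates 1, 2 and 3. Each difference is given with its moderated standard error (SE) from 3 animals per group. For 7 members (21.2%) the 3 anthraquinone values all lay below the 3 corn oil values, which 10.2% of all entries did. One of the 7, Dtx3l, passed the brightness filter through the corn oil arrays alone. For 1 member, Ifi35, they all lay above, which 15% of all entries did. The groups of the other 25 members overlapped. All members were measured in the same 6 animals, so these counts are not counts of independent events.

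**Figure D2:**
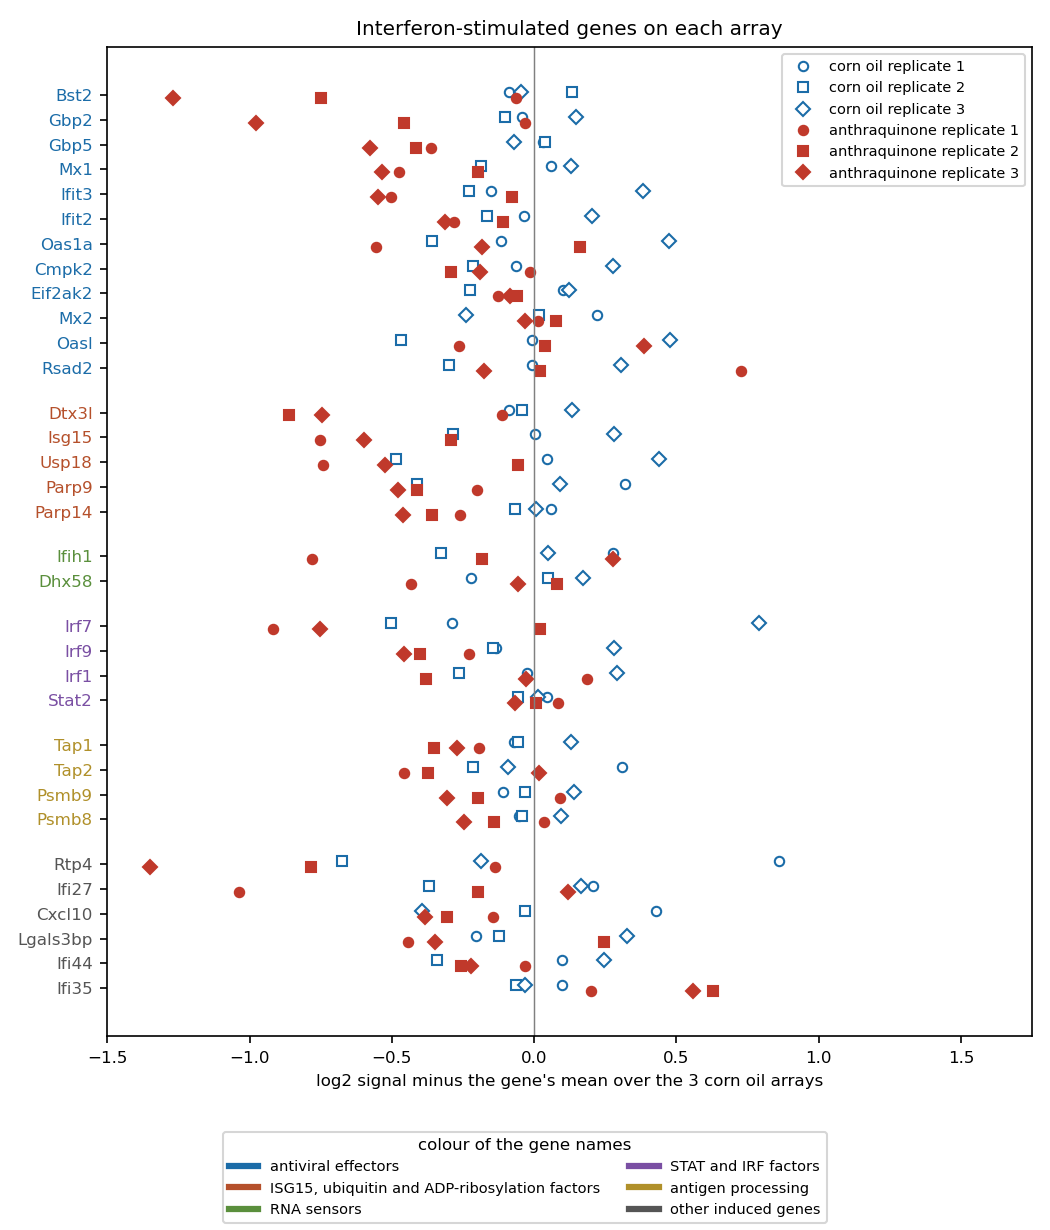
Normalized log2 signal of the 33 tested members on each array, minus the gene's mean over the 3 corn oil arrays. Open blue markers are corn oil animals, filled red markers anthraquinone animals, and the marker shape is the replicate number. Gbp5, Mx1, Parp14, Isg15, Dtx3l, Irf9 and Tap1 have groups that do not overlap with anthraquinone lower, and Ifi35 with anthraquinone higher.

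Among the 12 tested antiviral effectors, 9 had a difference below 0 and the median was -0.21. Gbp5, a guanylate-binding GTPase that acts on intracellular pathogens and inflammasomes, had the smallest p of all members. The corn oil animals had signals of -1.67, -1.66 and -1.77, and the anthraquinone animals had -2.06, -2.12 and -2.28. Each anthraquinone animal lay below each control, and the spread within groups was narrow. The difference was -0.45 ± 0.087 (SE, 95% interval -0.66 to -0.24, limma adjusted p = 0.165), or 1.37-fold lower. A dimmer Gbp5 probe was well above background on the 3 corn oil arrays and on 0 of the 3 anthraquinone arrays. Its groups overlapped, and no fold is given for it.

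Gbp2 lies near Gbp5 on chromosome 2 and encodes a GTPase of the same family. Its controls were at 0.97, 0.91 and 1.16 and its treated animals at 0.98, 0.56 and 0.037. Anthraquinone replicate 1 lay among the controls and replicate 3 well below them. Its difference was -0.49 ± 0.24 (limma adjusted p = 0.349), -0.24 without anthraquinone replicate 3 and -0.72 without anthraquinone replicate 1. Bst2, which encodes tetherin, a membrane protein that holds budding virions on the cell, had the same order among the treated animals. It was at 1.76, 1.98 and 1.80 in corn oil and at 1.78, 1.095 and 0.57 with anthraquinone, a difference of -0.69 ± 0.29 (limma adjusted p = 0.301). A second Bst2 probe differed by -0.70, with groups just apart. Without anthraquinone replicate 3 the Bst2 difference was -0.41, and without anthraquinone replicate 1 it was -1.01.

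Mx1, an interferon-induced dynamin-like GTPase that blocks viral ribonucleoproteins, was at 2.05, 1.81 and 2.12 in corn oil and 1.52, 1.80 and 1.46 with anthraquinone. The groups did not overlap, though corn oil replicate 2 and anthraquinone replicate 2 nearly met. The difference was -0.40 ± 0.13 (limma adjusted p = 0.229). A dimmer Mx1 probe was well above background on 3 corn oil and 2 anthraquinone arrays, and no difference is given for it. Mx2, its close paralog, gave 0.019 on its brightest probe and -0.63 on a far dimmer one. The corn oil means of these probes were 6.22 and -3.26, and whether both read the same transcript was not tested. The sign of the brighter Mx2 probe turned after quantile normalization (-0.15) and cyclic loess (-0.13), so its direction was not settled. Probes of the Mx, Oas, Ifit and Gbp families were not checked for cross-hybridisation between paralogs.

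The Ifit proteins bind viral RNA ends and hold back its translation. On their brightest probes Ifit3 differed by -0.38 ± 0.21 and Ifit2 by -0.23 ± 0.12 (limma adjusted p = 0.398 and 0.366), and both had groups that overlapped. Without corn oil replicate 3 they differed by -0.19 and -0.13, and with the normexp background correction by -0.10 and -0.15. A second Ifit3 probe gave -0.49, with groups apart and anthraquinone lower. For Ifit2 a second probe gave -0.017, with groups that overlapped. On the Ifit1 probe corn oil replicate 3, at -4.75, was the 1 array well above background, and it was also the highest array for Ifit2 and Ifit3. Oas1a, a synthase of 2′-5′ oligoadenylates that activate RNase L, differed by -0.19 ± 0.27, and Oasl by 0.054 ± 0.27. Eif2ak2, the double-stranded RNA kinase PKR that stops translation, differed by -0.091 ± 0.11 with a 95% interval of -0.36 to 0.18. Rsad2, which encodes viperin, and Cmpk2, a nucleotide kinase gene next to it on chromosome 6, differed by 0.19 ± 0.27 and -0.16 ± 0.15. Without corn oil replicate 3 the Cmpk2 difference was -0.026 and that of Oas1a 0.044, each on the brightest probe. A second probe gave -0.14 for Cmpk2 and -0.45 for Oas1a over all arrays, with groups that overlapped. Anthraquinone replicate 1 was the highest array for Rsad2, and without it that difference was -0.078.

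The lowest role median belonged to the genes of ISG15 conjugation, ubiquitination and ADP-ribosylation, at -0.44, and all 5 tested members had differences below 0. Isg15 encodes the ubiquitin-like protein that is conjugated to viral and host proteins. It was at 0.78, 0.49 and 1.06 in corn oil and 0.024, 0.48 and 0.18 with anthraquinone, 1.46-fold lower, with groups just apart (difference -0.55 ± 0.18, limma adjusted p = 0.234). Corn oil replicate 2 and anthraquinone replicate 2 nearly met here too. Usp18, the protease that removes Isg15 and damps receptor signalling, differed by -0.44 ± 0.28 on its brightest probe and by -0.61 on the next (limma adjusted p = 0.456 on the brightest). Without corn oil replicate 3 the difference of the brightest was -0.22. Its corn oil animals ranged from -2.43 to -1.51, and the groups overlapped.

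Parp14, Parp9 and Dtx3l lie near each other on chromosome 11. Parp14 and Parp9 belong to the ADP-ribosyltransferase family, and Dtx3l is the E3 ligase partner of Parp9. Parp14 was at 2.22, 2.09 and 2.16 in corn oil and 1.90, 1.80 and 1.70 with anthraquinone. The controls lay close together, and each anthraquinone animal was below them. The difference was -0.36 ± 0.083 (95% interval -0.56 to -0.16, limma adjusted p = 0.191). Its other 3 probes gave -0.56, -0.59 and -0.48, all with groups apart, so the 4 probes pointed the same way.

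Dtx3l was at -4.69, -4.65 and -4.47 in corn oil and -4.72, -5.47 and -5.35 with anthraquinone, and its probe was well above background on 1 of the 3 anthraquinone arrays, replicate 1. Anthraquinone replicate 1 nearly met corn oil replicate 1. The other 2 anthraquinone values lie near the detection limit, so the difference of -0.57 ± 0.21 (limma adjusted p = 0.250) is uncertain in size, and it was -0.10 after a normexp background correction. Parp9 and Dtx3l have starts 1214 bases apart. Parp9 was at -1.12, -1.85 and -1.35 in corn oil and -1.64, -1.85 and -1.91 with anthraquinone, where corn oil replicate 2 sat with the treated animals (difference -0.36 ± 0.20, limma adjusted p = 0.392). Leaving out corn oil replicate 1 gave Parp9 a difference of -0.20, and leaving out replicate 2 of that group gave -0.57.

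**Figure D3:**
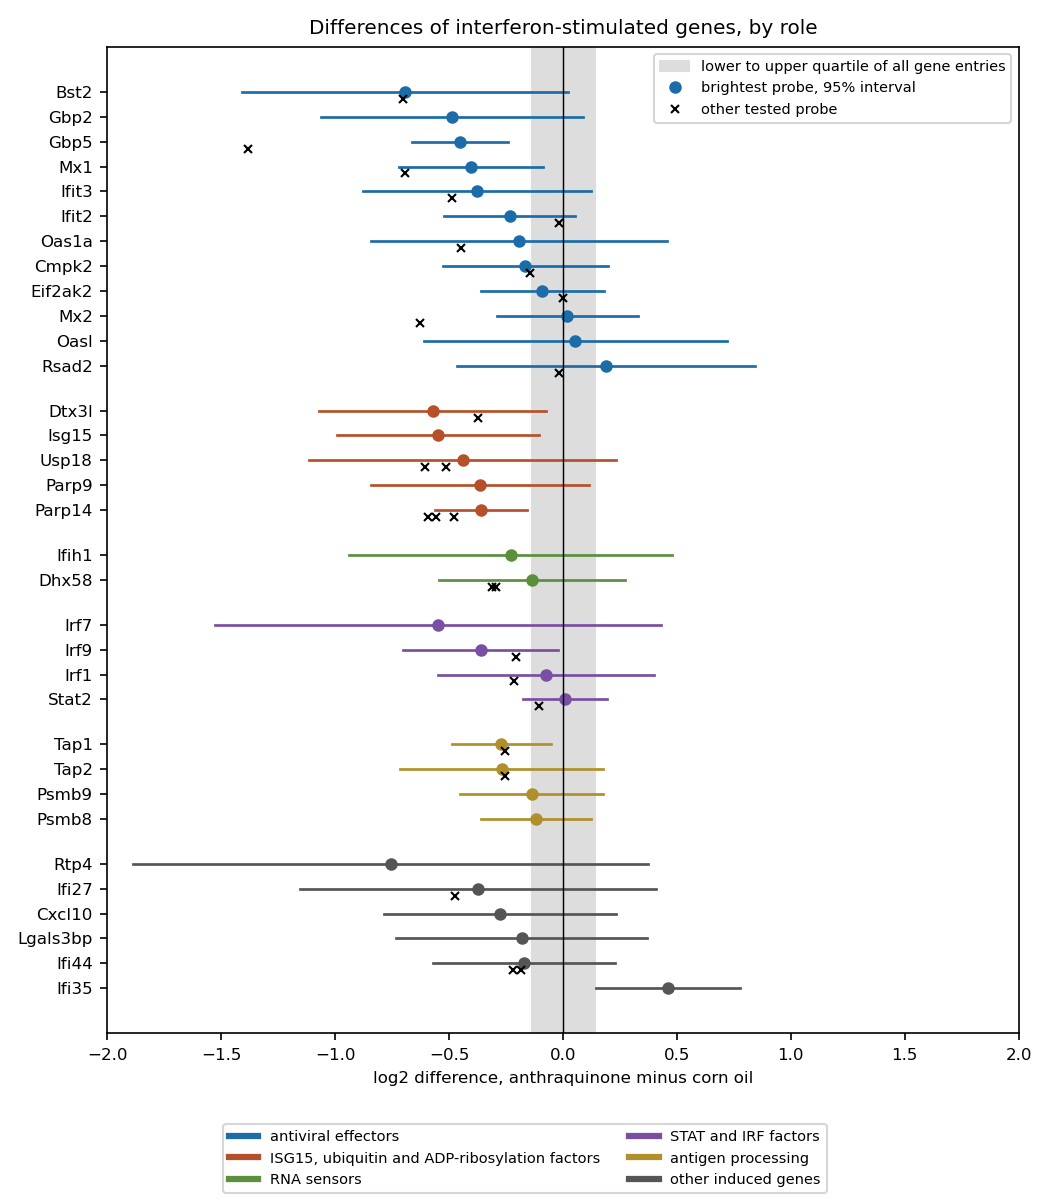
Log2 difference, anthraquinone minus corn oil, for the 33 tested members, grouped by role. Circles are the brightest probe with its 95% interval from the limma fit, crosses are other tested probes of the gene, and the grey band runs from the lower to the upper quartile of all 32663 entries, -0.14 to 0.14. Of the 59 tested probes 53 lie below 0.

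Both tested RNA sensors had differences below 0 and groups that overlapped. Ifih1 encodes MDA5, which detects long double-stranded RNA. It was at -2.78, -3.38 and -3.00 in corn oil and -3.84, -3.24 and -2.78 with anthraquinone, so that anthraquinone replicate 1 was the lowest array and replicate 3 equalled the highest control to 2 decimals. The difference was -0.23 ± 0.29 (limma adjusted p = 0.723). Dhx58 encodes LGP2, a helicase that modulates the other RNA sensors. Its values were -2.46, -2.19 and -2.06 in corn oil and -2.67, -2.16 and -2.29 with anthraquinone, a difference of -0.14 ± 0.17 (limma adjusted p = 0.713). Without anthraquinone replicate 1 both differences turned, to 0.046 for Ifih1 and 0.012 for the brightest Dhx58 probe. Other Dhx58 probes gave -0.29 and -0.31 over all arrays, with groups that overlapped. The helicase RIG-I (Rigi) was not analysed here.

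Of the 4 transcription factors 3 had differences below 0, with a median of -0.22. Irf9, the DNA-binding subunit of the ISGF3 complex, was at -1.53, -1.54 and -1.11 in corn oil and -1.62, -1.79 and -1.85 with anthraquinone. All anthraquinone values were below all controls, and corn oil replicate 3 was the highest array. Its difference was -0.36 ± 0.14 (limma adjusted p = 0.273), -0.22 without corn oil replicate 3 and -0.24 with the normexp correction. A second Irf9 probe gave -0.21, with groups that overlapped. Stat2, the partner of Irf9 in that complex, was at 2.06, 1.96 and 2.03 in corn oil and 2.10, 2.03 and 1.95 with anthraquinone. This was the narrowest spread of any member, and the difference was 0.0086 ± 0.076, with a 95% interval of -0.18 to 0.19. Its sign turned after quantile normalization (-0.024) and cyclic loess (-0.038).

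Irf7, the factor that amplifies type I interferon production and is itself interferon-induced, was at 1.18, 0.96 and 2.25 in corn oil and 0.55, 1.48 and 0.71 with anthraquinone. The SD inside the corn oil group was 0.69, larger than the difference of -0.55 ± 0.40 between groups (limma adjusted p = 0.520). Without corn oil replicate 3 that difference was -0.15. Irf1, strongly induced by interferon gamma, was at 1.87, 1.63 and 2.19 in corn oil and 2.08, 1.52 and 1.87 with anthraquinone, and the groups overlapped (difference -0.075 ± 0.20, limma adjusted p = 0.877).

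Antigen processing genes had small differences, all 4 below 0, with a median of -0.20. Tap1 and Tap2 encode the subunits of the transporter that carries peptides into the endoplasmic reticulum. Tap1 was at -1.52, -1.51 and -1.32 in corn oil and -1.64, -1.80 and -1.72 with anthraquinone, with groups apart (difference -0.27 ± 0.089, limma adjusted p = 0.232), and a second probe gave -0.25 with groups apart. Tap2 was at 0.99, 0.47 and 0.59 in corn oil and 0.23, 0.31 and 0.70 with anthraquinone, with overlap (difference -0.27 ± 0.18, limma adjusted p = 0.490). Tap1 was at a difference of -0.17 with the normexp correction, and Tap2 at -0.12 without corn oil replicate 1. The immunoproteasome subunits, which replace the constitutive catalytic subunits under interferon, had differences nearer to 0. Psmb8 was at 0.74, 0.75 and 0.89 in corn oil and 0.83, 0.65 and 0.55 with anthraquinone, a difference of -0.12 ± 0.099 (limma adjusted p = 0.576). Psmb9 was at 1.04, 1.11 and 1.29 in corn oil and 1.24, 0.95 and 0.84 with anthraquinone, a difference of -0.14 ± 0.13 (limma adjusted p = 0.618). In both, anthraquinone replicate 1 lay among the controls, and without anthraquinone replicate 3 both differences were -0.054. The constitutive counterparts Psmb5, Psmb6 and Psmb7 had log2 differences of -0.019, -0.082 and 0.14.

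Of the 6 other tested members 5 had differences below 0, with a median of -0.23. Ifi35, a leucine zipper protein that binds Nmi, was the 1 member with higher values in every anthraquinone animal. It was at 0.60, 0.44 and 0.47 in corn oil and 0.71, 1.13 and 1.06 with anthraquinone, 1.38-fold higher (difference 0.46 ± 0.13, limma adjusted p = 0.209). Its window held neither motif. The same was so for Mx1, Parp9, Cmpk2 and Psmb9, with differences below 0, and for Oasl and Stat2, with differences slightly above 0. Rtp4, a receptor-transporting protein that is also an interferon-induced antiviral factor, was at 1.16, -0.38 and 0.11 in corn oil and 0.16, -0.49 and -1.05 with anthraquinone. Corn oil replicate 1 stood well above the other 5 arrays, and the groups overlapped (difference -0.76 ± 0.47, limma adjusted p = 0.446). Leaving out corn oil replicate 1 gave Rtp4 a difference of -0.33, and leaving out replicate 2 of that group gave -1.095.

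Cxcl10, the chemokine that draws Cxcr3-bearing T cells and NK cells, was at 0.22, -0.24 and -0.60 in corn oil and -0.35, -0.52 and -0.59 with anthraquinone, where corn oil replicate 3 was the lowest of all 6 (difference -0.28 ± 0.21, limma adjusted p = 0.533). Without corn oil replicate 1 that difference was -0.064, and without corn oil replicate 3 it was -0.48. Cxcl10 and Mx2 were the 2 members lowest in corn oil replicate 3. Ifi27, an interferon-induced mitochondrial and nuclear envelope protein, was at 5.44, 4.86 and 5.39 in corn oil and 4.19, 5.03 and 5.35 with anthraquinone, so anthraquinone replicate 1 was lowest and replicates 2 and 3 lay among the controls (difference -0.37 ± 0.32, limma adjusted p = 0.589). Leaving out anthraquinone replicate 1 gave Ifi27 a difference of -0.039, and leaving out replicate 3 of that group gave -0.62. Ifi44 and the secreted scavenger-receptor protein gene Lgals3bp differed by -0.17 ± 0.16 and -0.18 ± 0.23, and by -0.049 and -0.019 without corn oil replicate 3.

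Many members had more than 1 probe. The members had 61 matched probes, 59 of them tested, of which 53 had differences below 0 and 6 above. Both Dtx3l probes, and the dimmest probes of Gbp5, Mx1 and Usp18, passed the brightness filter through the corn oil arrays alone, so a value below 0 was favoured for them. Among the 21 members with 2 or more tested probes, all probes had 1 sign for 17 and both signs for 4, which were Mx2, Rsad2, Stat2 and Eif2ak2. With the mean of a gene's tested probes in place of the brightest, 30 of the 33 members were below 0.

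Animals of the same group also differed from each other across the members. Corn oil replicate 3 had the highest value of the 6 arrays for 20 of the 33 members, and anthraquinone replicate 3 the lowest for 13. The median deviation from the members' own means was 0.15, -0.050 and 0.30 on the control arrays. On the anthraquinone arrays it was -0.057, -0.073 and -0.24. Corn oil replicate 2 thus lay level with anthraquinone replicates 1 and 2. Corn oil replicate 3 was above corn oil replicate 2 for 29 of 33 members, by a median of 0.37, where the median over all entries was -0.0099. That gap between 2 control animals was larger than the median difference between groups.

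The pooled within-group SD had a median of 0.26 over the members and 0.14 over all entries, and it was above the entries' median for 27 of 33. It was largest for Rtp4 (0.70), Irf7 (0.60) and Ifi27 (0.48). It was smallest for Stat2 (0.065), Parp14 (0.083), Gbp5 (0.091) and Tap1 (0.096). Parp14 and Tap1 had separated groups at differences smaller than those of Usp18 and Bst2, whose groups overlapped on the brightest probe. The pairwise medians between anthraquinone animals ran from 0.054 to 0.11, and those between corn oil animals from 0.19 to 0.37. The median SD over the members was 0.25 in corn oil and 0.23 with anthraquinone.

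**Figure D4:**
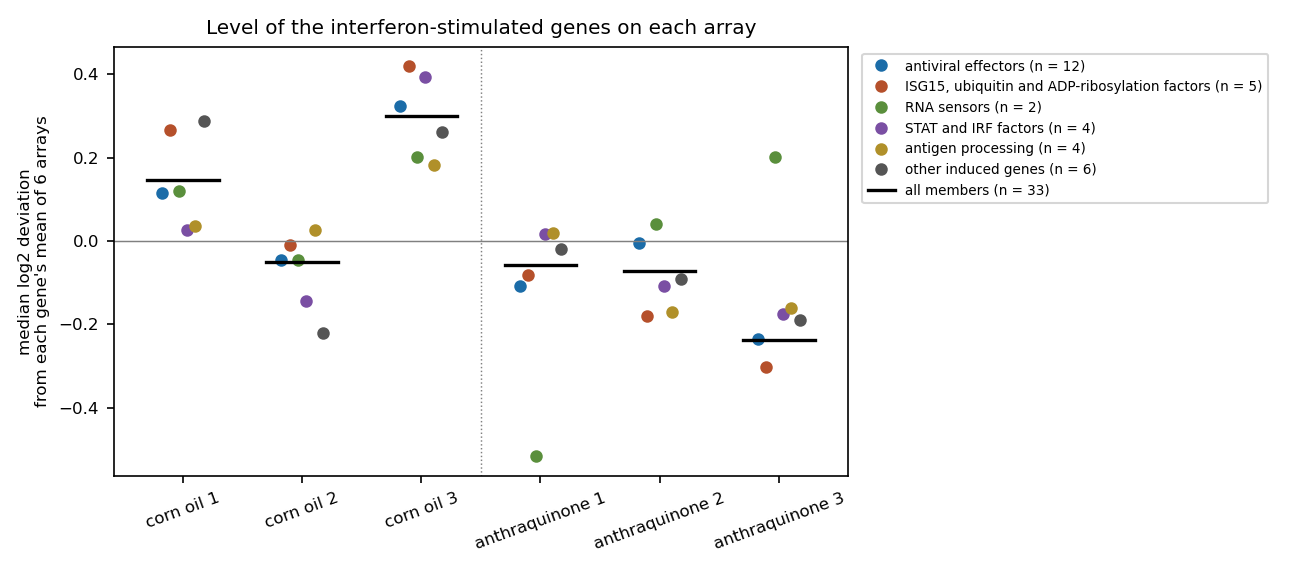
Median log2 deviation of the members from each gene's own mean over the 6 arrays, for each animal. Dots are the 6 roles and black bars all 33 members. Corn oil replicate 3 stands highest at 0.30, anthraquinone replicate 3 lowest at -0.24, and corn oil replicate 2 at -0.050 lies beside anthraquinone replicates 1 and 2.

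Genes upstream of the members came from named lists and were read from the same fit. Of 11 interferon genes 6 had no matched probe, and Ifna5, Ifnb1, Ifnk and Ifng stood well above background on 0 of the 6 arrays. Ifna4 was tested and had a log2 difference of 0.032. Among 14 tested receptors, kinases and regulators 0 passed the limma test, 1 was lower and 1 higher at an unadjusted p under 0.05, and the median was -0.0061. The groups were apart for 4 of the 14 with anthraquinone lower and for 2 with it higher, where 10.2% and 15% of all entries were. The receptor chains Ifnar1, Ifngr1 and Ifngr2 had differences of -0.12 ± 0.066, 0.19 ± 0.093 and 0.17 ± 0.079. The kinase gene Jak1 had a difference of -0.20, with groups apart (limma adjusted p = 0.288). The feedback inhibitor gene Socs3 had a difference of 0.46 ± 0.13 (limma adjusted p = 0.213). Socs1, another feedback inhibitor, was well above background on the 3 corn oil arrays and on 1 anthraquinone array, so its fitted difference is not given.

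Adaptors of nucleic acid sensing had a median log2 difference of 0.040 over 9 tested genes, with 0 at an unadjusted p under 0.05. Mavs, the mitochondrial adaptor of the RNA helicases, had a difference of 0.10, the endosomal receptor gene Tlr3 0.40, the kinase gene Ikbke -0.13 and Sting1, the adaptor of DNA sensing, -0.063. Of the 6 other tested IRF genes, Irf8 had the smallest p, with a difference of -0.31 ± 0.12 (limma adjusted p = 0.258). Irf3, which starts interferon transcription, had a difference of -0.11 and Irf5 of 0.11. Neither list leaned to 1 side, with 4 of 9 and 3 of 6 below 0.

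Another list of 52 interferon-stimulated genes outside the 37 was measured the same way, and it also leaned low. Of its 35 tested genes 29 had differences below 0 (82.9%, against 48.4% of all entries), with a median of -0.15. The groups were apart with anthraquinone lower for 8 (22.9%, against 10.2% of all entries) and with it higher for 0 (against 15%). No gene passed the limma test, and 6 were lower and 0 higher at an unadjusted p under 0.05, beside 7.65% and 9.47% of all entries. The 4 with the smallest p had differences below 0, Tor3a at -0.64 ± 0.13, the antibody receptor and E3 ligase gene Trim21 at -0.44 ± 0.11, the death ligand gene Tnfsf10 at -0.49 ± 0.14 and Oasl2 at -0.47 ± 0.14, with limma adjusted p of 0.182, 0.195, 0.210 and 0.215. These genes were measured in the same animals and are not independent of the members. Both lists were chosen with earlier results of these data known.

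The other genes of the MHC class I pathway were balanced, with 5 of 10 below 0 and a median of -0.011. B2m, the light chain of MHC class I, had all anthraquinone values above all controls, with a difference of 0.19 ± 0.077 (limma adjusted p = 0.290). The proteasome activator gene Psme3 had a difference of 0.19 ± 0.088, the chaperone gene Pdia3 of -0.19 ± 0.091 and tapasin (Tapbp) of 0.43 ± 0.28, none of them past the test. Tap1 and B2m, both on the class I route, thus had groups apart in opposite directions.

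**Figure D5:**
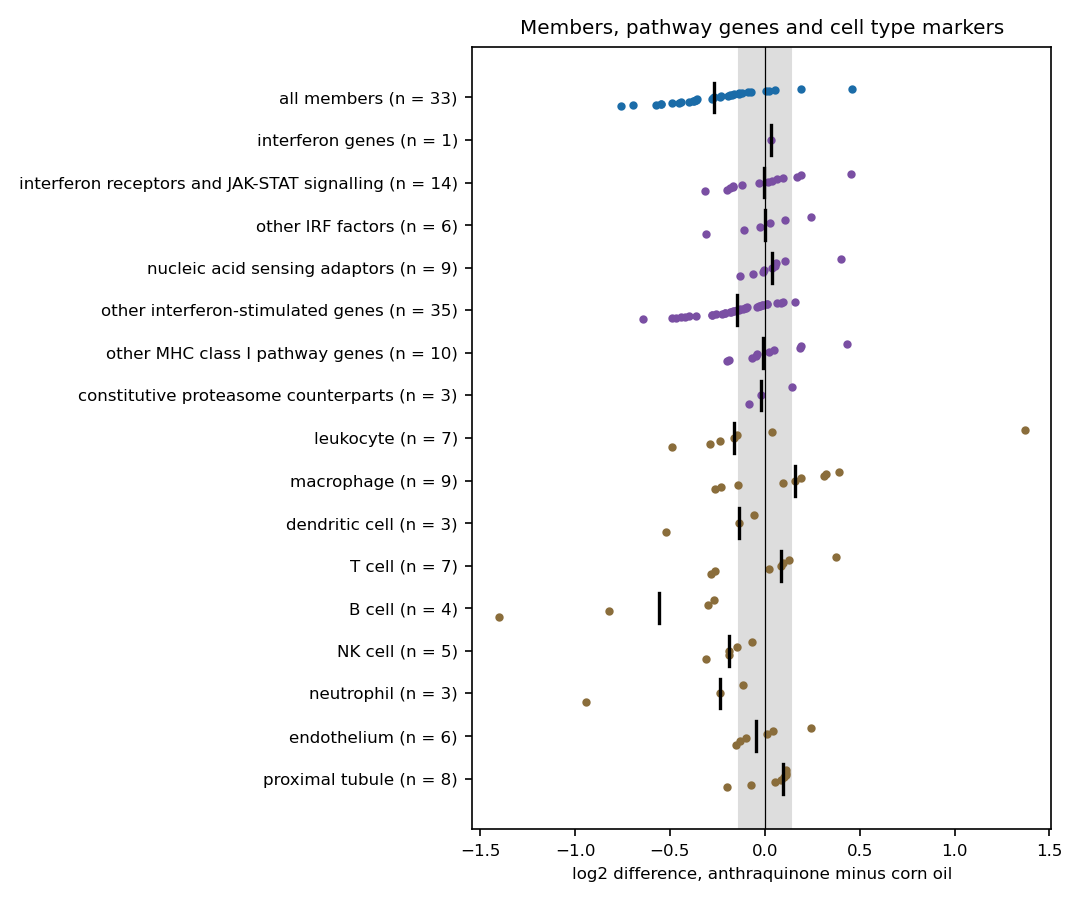
Log2 differences, anthraquinone minus corn oil, of each tested gene in the members (top row), the pathway lists (purple) and the cell type marker lists (brown), with a black bar at each list's median. The grey band runs from the lower to the upper quartile of all entries. The members (median -0.27) and the other interferon-stimulated genes (median -0.15) lie to the left, and the receptor, sensing and class I lists lie around 0.

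Immune cell markers were read from the same arrays, and their part in the result was not tested. Of 7 general leukocyte markers 5 were below 0 (median -0.16), with summed levels of 20.8 to 23.6 in corn oil and 17.7 to 23.6 with anthraquinone. A summed level adds the markers' signals on a linear scale, in units of the array's 75th percentile. The integrin gene Itgb2 had a log2 difference of -0.49 and Cd52 one of 1.37, neither past the test. All 4 tested B cell markers, among them Cd79b, Blnk and Pax5, were below 0 (median -0.56), and their summed level was 1.71 to 1.93 in corn oil and 1.35 to 1.48 with anthraquinone, without overlap. Anthraquinone replicate 3 had the lowest summed level for the B cell, general leukocyte, macrophage, NK cell and dendritic cell lists. It was not the lowest for the T cell, neutrophil, endothelial and proximal tubule lists. That animal was lowest for the members by median deviation. Summed in the same way, the members' signals were lowest in anthraquinone replicate 1, at 139 against 153 in anthraquinone replicate 3. Such a sum is dominated by the brightest probes, those of Mx2 and Ifi27. The order of these sums leans on Ifi27, whose log2 signal was 4.19 in anthraquinone replicate 1 and 5.35 in replicate 3. Cd79b was well above background on 1 of the 3 anthraquinone arrays, and Cd79a and Ms4a1 had no matched probe.

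Macrophage markers were mixed, with 3 of 9 below 0, where 48.4% of all entries were, 6 above 0, and a median of 0.16. The groups were apart with anthraquinone higher for C1qa, C1qb and C1qc (0.39, 0.31 and 0.32) and lower for Csf1r (-0.23). Over all entries 15% were apart higher and 10.2% lower. The summed level of the macrophage markers was 28.1 to 31.7 in corn oil and 27.8 to 35.8 with anthraquinone. The 5 tested NK cell markers, the 3 dendritic cell markers and the 3 neutrophil markers were all below 0, with medians of -0.19, -0.13 and -0.24. Their summed levels, controls first, were 1.09 to 1.63 and 1.07 to 1.25 for NK cells, 0.231 to 0.268 and 0.185 to 0.277 for dendritic cells, and 0.670 to 0.857 and 0.559 to 0.734 for neutrophils. T cell markers were below 0 for 2 of 7, with summed levels of 1.61 to 2.07 and 1.74 to 2.35. Endothelial markers had a median of -0.044, with summed levels of 31.7 to 34.6 and 29.5 to 34.7. Xcr1 and Ncr1 stood well above background on 0 of the 6 arrays, Cd163, Cd3e and Cxcr2 did not pass the background filter, and none of the markers passed the limma test.

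Several facts of the arrays stand beside these values. The array of corn oil replicate 1 came from a different slide and scan than the other 5. On the slide that holds 5 arrays, both controls sat in row 1 and the anthraquinone arrays in row 2, so row and group cannot be told apart there. Between 68.7 and 70.7% of probes on the corn oil arrays were well above background, and 64.2 to 66.1% on the anthraquinone arrays, and the part of this gap in the values of dim probes was not tested. In all, 9 of 32663 entries passed the limma test. Leaving out corn oil replicate 1, 2 or 3 changed that count to 2, 1 or 25. Leaving out anthraquinone replicate 1, 2 or 3 gave 1, 1 or 4. None of the 33 members passed in any of these 6 fits, and between 27 and 30 of them were below 0. The count of members at an unadjusted limma p under 0.05 was 8 with all arrays. It was 5, 11 or 4 when corn oil replicate 1, 2 or 3 was left out, and 8, 6 or 3 when anthraquinone replicate 1, 2 or 3 was. With a normexp background correction the members' median was -0.15.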

How the data were processed

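Spot intensity was read from the deposited scanner files, which name Agilent Feature Extraction version 10.7.1.1 (10.7 per the submitters' processing notes). The software had removed background and spatial trend from the processed intensity, per the file headers, with no scaling between arrays. In the deposited value table, 90.7 to 97.0% of probes were within 0.01 log2 of the same intensity over the array's 75th percentile.

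Here log2 processed intensity minus the 75th percentile was used, without 2 to 13 outlier spots per array. Unversioned accessions named 27460 of 61657 probes through the RefSeq table of GRCr8, for names only, since the design's build is rn4. Probes well above background on all arrays of a group were tested (41310). Each gene took its brightest, giving 32663 entries, 11831 named. Groups were fitted with limma 3.58.1 (R 4.3.3), adjusted by Benjamini-Hochberg over all entries, threshold 0.05. Simulated data of 32649 entries gave back 82% of 50 changes of 1 log2 unit and 16% of 50 changes of 0.5. The simulation also held larger changes and gave 149 calls, where 9 entries passed in the real data, so the adjusted threshold was easier to pass there. The members' median pooled SD was 0.26, against 0.14 over all entries, so these shares cannot be read as shares for the members. The p-values reflect the spread of 3 animals per group, and so few arrays limit the precision.

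The members and lists were chosen with earlier results of these data known. Every member is named. Array values are given for up to 4 members per role with the smallest p and for members with groups apart. Pathway lists name up to 4 genes by p, plus Ifnar1, Ifngr1, Jak1 and B2m. A few pathway genes and markers covered by the rule are left out here. The markers named were chosen after their values were seen. Alternatives changed scaling, background (normexp on median spot signal), filter, probe choice, variance model, weights, slide, replicate number and each array left out.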

Additional observations from a re-analysis of the deposited data

How the results depend on the processing

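The members' median difference stayed below 0 in all alternatives, from -0.37 without corn oil replicate 2 to -0.19 without corn oil replicate 3, and -0.15 with the normexp correction. No member passed, except Gbp5 without the filter on dim probes (-0.45, limma adjusted p = 0.0264), the 1 member called there among 6611 of 49481 entries; over all its alternatives its adjusted p ran from 0.0264 to 0.377. The count of entries that passed was 54 at an adjusted p of 0.10, 81 with an intensity trend and robust variance, 16 with the normexp correction, 2 with the slide as a block (which equals leaving out corn oil replicate 1) and 1 to 25 with 1 array left out; the cause was not tested. With the replicate block 1 entry and 0 members passed. The titles name no pairing of the animals. Deviations of same-numbered animals correlated at 0.028, -0.059 and -0.0074, and those of differently numbered animals at -0.097 to 0.11. With 3 animals per group these correlations can neither show nor exclude a pairing.

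The normexp correction also moved the role medians of effectors (-0.14), the ISG15 role (-0.27), sensors (-0.073) and factors (-0.14). Leaving out 1 array moved role medians between -0.35 and -0.12 (effectors), -0.59 and -0.36 (ISG15 role), -0.33 and 0.029 (sensors), -0.32 and -0.070 (factors), -0.23 and -0.14 (antigen processing) and -0.33 and -0.15 (others). The sign of a member turned for Mx2 with cyclic loess (-0.13), quantile normalization (-0.15), the normexp correction (-0.014) and the mean of probes (-0.30), and for Stat2 with the first 2 and the mean of probes (-0.038, -0.024 and -0.048). With 1 array left out it turned, on the brightest probe, for Mx2 (-0.10 to 0.13), Stat2 (-0.030 to 0.047), Irf1 (-0.21 to 0.078), Oas1a (-0.37 to 0.044), Oasl (-0.18 to 0.29), Rsad2 (-0.078 to 0.37), Ifih1 (-0.48 to 0.046) and Dhx58 (-0.25 to 0.012). Signal over background limits Dtx3l, Ifit1, Socs1 and the dimmest probes of Gbp5, Mx1 and Usp18.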
